A study of Mus musculus with 4 samples.

Results

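Glycolysis and the response to low oxygen were followed through 37 listed genes in otic vesicles, the epithelial sacs that become the inner ear. All 37 were found among the 34866 genes of the deposited table. They comprise 17 glycolytic enzymes, 4 carriers of glucose or lactate, 4 regulators of glycolytic flux, 10 targets of the hypoxia response outside glycolysis and 2 hypoxia-inducible factors. The genes were listed by name, with no threshold on measured values. Vesicles came from C57/BL6 mouse embryos at embryonic day 11.5. The WT group is wild-type and the KO group is Meis2 mutant, called knockout in the titles, with 2 libraries each (WT 1, WT 2, KO 1 and KO 2). No treatment is named in the labels. Meis2 encodes a homeodomain transcription factor. Neither the allele, nor the deleted part of the gene, nor the number of embryos or vesicles in a library is stated in these sources. Nothing says that the libraries of a group came from separate litters, so p-values measure only the spread between these samples, which may be technical.

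Glycolysis splits glucose into pyruvate in the cytosol, and lactate dehydrogenase can turn that pyruvate into lactate for export. When oxygen is scarce, the alpha subunits HIF-1 alpha and HIF-2 alpha escape hydroxylation and destruction, pair with ARNT and bind short elements near their target genes. Those targets include many glycolytic enzymes and the lactate carrier MCT4, as well as genes of mitophagy, vessel growth and collagen hydroxylation. Embryonic tissues of this age are known for strong glycolysis, and part of the normal embryo is low in oxygen.

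Values are TPM, an abundance scaled for transcript length that sums to 1000000 in each library, so that levels of different genes can be compared. Sequencing depth cannot be read from TPM, so values carry no counting interval. Meis2 itself was at 78.98 TPM (WT 1), 88.7 (WT 2), 73.2 (KO 1) and 76.6 (KO 2), which does not check the genotype, since the deleted part is not known. The tissue label was checked against 12 otic epithelial markers. All 12 were tested, and together they summed to 1840 TPM (WT 1), 1659 (WT 2), 1442 (KO 1) and 1528 (KO 2). Other tissues were present too. Neuronal markers summed to between 400 TPM (KO 1) and 1069 TPM (KO 2), and globins and other erythroid markers to between 10869 TPM (WT 1) and 26019 TPM (WT 2). In such bulk samples, fewer cells of a type and less RNA per cell cannot be told apart.

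The glycolytic enzymes were among the abundant transcripts of the vesicle. Their 17 genes together made up 1.03% (WT 1), 0.903% (WT 2), 0.804% (KO 1) and 0.960% (KO 2) of all TPM. Their sum averaged 9649 ± 877 TPM over the WT libraries and 8824 ± 1102 TPM over the KO libraries (SD, n = 2), and the means differed by less than either SD. WT 1 was highest and KO 1 lowest, with WT 2 and KO 2 between them, so the genotypes overlapped. These sums leave out near-identical copies of the enzyme genes elsewhere in the genome. Copies of Gapdh alone held 1123 TPM (WT 1), 469 (WT 2), 1586 (KO 1) and 274 (KO 2). The low place of KO 1 thus depends on how reads were split among copies. The 4 carriers summed to 252 TPM (WT 1), 194 (WT 2), 181 (KO 1) and 183 (KO 2). Both KO sums lay below both WT sums, but WT 2 was nearer to the KO libraries than to WT 1. The 10 hypoxia targets summed to 317, 241, 239 and 264 TPM in the same order, where WT 1 again stood above the other 3 libraries.

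**Figure D1:**
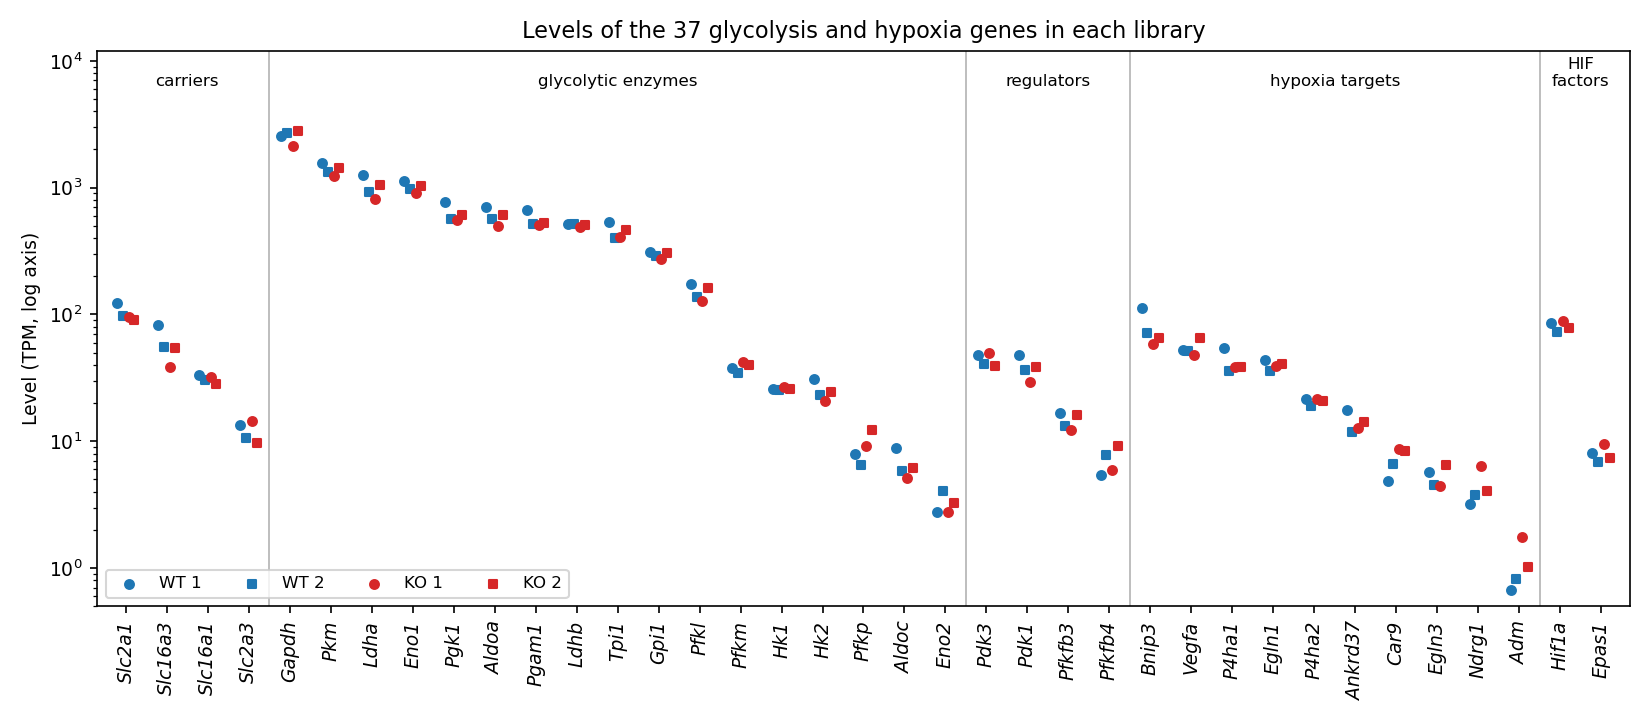
Level of each of the 37 genes in TPM on a log axis, grouped by role and ordered by mean level within a role, with 1 point per library (circles for number 1, squares for number 2, blue for WT, red for KO). Gapdh, Pkm, Ldha and Eno1 stand highest, and in many genes the WT 1 point is the highest of the 4.

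No difference between KO and WT passed the test over all genes in any of the 37. With limma on log2(TPM + 1), 0 of 37 members and 0.0% of the 14496 genes tested passed an adjusted p of 0.05. At an unadjusted p under 0.05 there were 2 members, Car9 and Pfkp, beside 3.5% of all genes tested. Both were higher in KO, as were 2.09% of all genes tested at that level, while 0 members and 1.41% of all genes were lower. All 37 members passed the filter, a mean of at least 1 TPM. The mean log2 value of KO lay below that of WT in 24 of the 37 members, by under 0.01 for Slc2a3 and Pdk3, and in 38.4% of all genes tested. Differences below are KO minus WT on the log2(TPM + 1) scale, which understates changes of low genes, with a standard error (SE). The median difference was -0.08 over the members and 0.03 over all genes tested. The genotypes did not overlap with KO higher in 5 members (19.2% of all genes) and with KO lower in 4 members (10.5% of all genes).

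By role, carriers and enzymes were mostly lower in KO. Hypoxia targets outside glycolysis were mostly higher, as were all genes tested (8923 of 14496). The summed TPM of these targets was nevertheless lower in KO on average, at 251 ± 17.1 against 279 ± 53.6 in WT (SD, n = 2). Of the 17 glycolytic enzymes 14 were lower and 3 higher in KO, of which Hk1 was lower (-0.01) after quantile normalization. Their median difference was -0.11. Of the 4 carriers, 3 were lower and Slc2a3 was level (-0.01), with a median of -0.15. Of the 4 regulators, Pdk1 and Pfkfb3 were lower, Pfkfb4 was higher and Pdk3 was level (-0.00), with a median of -0.04. Of the 10 hypoxia targets 7 were higher and 3 lower, near the share over all genes tested, of which 38.4% were lower. Egln1, among the higher, was lower by median-of-ratios scaling (-0.02) and quantile normalization (-0.03). The median of the 10 targets was 0.07, and both hypoxia-inducible factors were higher (median 0.11). The median of the hypoxia targets exceeded that of the enzymes by 0.18, and by 0.08 without KO 1. No p is given for these medians. The enzyme median was -0.01 without WT 1 and -0.02 without KO 1, but -0.24 without WT 2 and -0.21 without KO 2. Without WT 2 or without KO 2, the hypoxia target median was -0.06 in each case, on the other side of 0, and without WT 1 it was 0.16.

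With libraries matched by number, the enzyme difference was present between those numbered 1 and had the opposite sign between those numbered 2. KO 1 lay below WT 1 in 13 of 17 enzymes, with a median difference of -0.35, where 41.9% of all genes tested were lower. KO 2 lay below WT 2 in 2 of 17 enzymes, with a median of 0.09, where 40.5% of all genes were lower. Over all 37 members, 23 differed in sign between the numbers. A step of at least 0.3 downward was seen in 18 members from WT 1 to KO 1 (6.66% of all genes) and in 0 members from WT 2 to KO 2 (7.64% of all genes). The numbers are replicate names in the titles and are not stated to mark a batch, so this matching is a choice. With the numbers crossed, the median enzyme was lower in KO both times. Relative to each gene's mean over the 4 libraries, it was at -0.15 in KO 1 and -0.08 in WT 2. It was at 0.04 in KO 2 and 0.18 in WT 1.

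**Figure D2:**
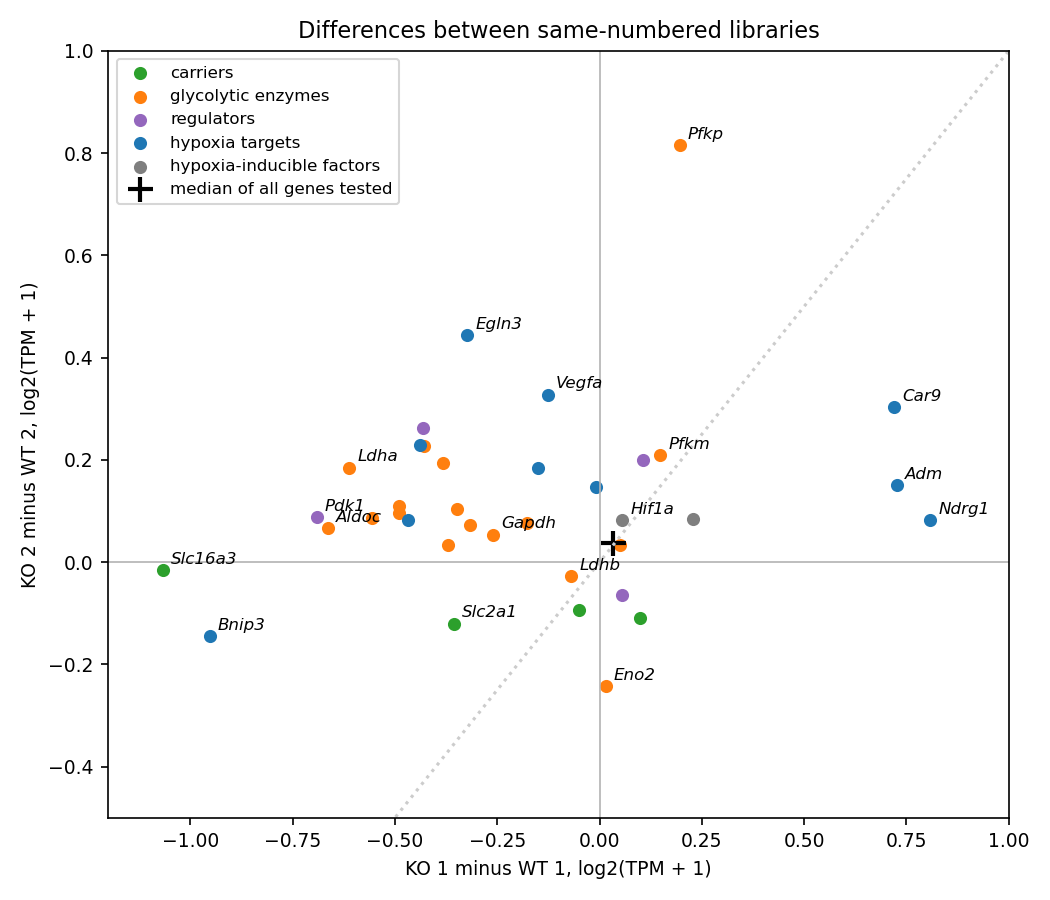
Difference between KO 1 and WT 1 (horizontal) and between KO 2 and WT 2 (vertical), both on the log2(TPM + 1) scale, 1 point per gene and coloured by role; the dotted line marks equal differences and the cross the median of all genes tested. Most enzymes lie left of 0 and slightly above it, and Car9, Ndrg1 and Adm lie far to the right.

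Library by library, WT 1 stood apart at the high end. It was the highest of the 4 libraries in 21 of 37 members, against 18.1% of all genes tested, and KO 1 was the lowest in 18, against 22.3%. Both held at once in 14 members, 10 of them enzymes, against 4.24% of all genes. Relative to each gene's mean over the 4 libraries, the median enzyme was at 0.18 (WT 1), -0.08 (WT 2), -0.15 (KO 1) and 0.04 (KO 2). The median hypoxia target was at 0.09, -0.14, -0.05 and 0.02 in that order. WT 1 exceeded WT 2 by at least 0.3 in 16 members, against 7.64% of all genes tested. For the median enzyme, the gap between WT 1 and WT 2 exceeded that between WT 2 and either KO library.

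**Figure D3:**
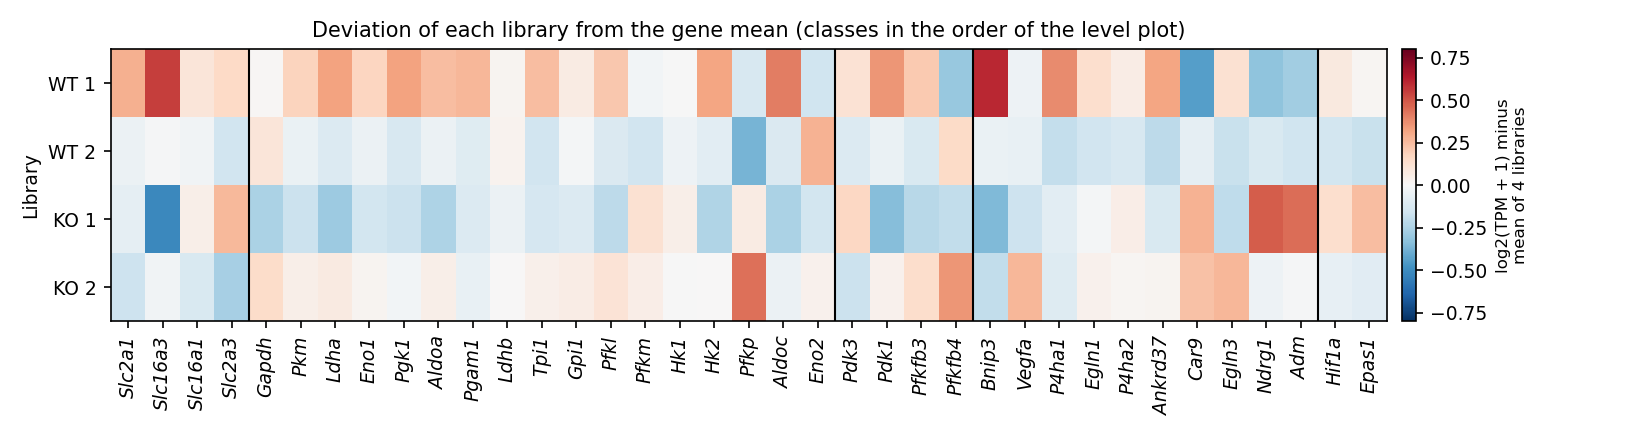
Deviation of log2(TPM + 1) from the gene's mean over the 4 libraries, 1 column per gene and 1 row per library, red above and blue below the mean. The WT 1 row is red for most carriers and enzymes and for Bnip3, and blue for Car9, Ndrg1, Adm and Pfkfb4.

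Markers of cell types shared parts of this order. The summed otic epithelial markers were also highest in WT 1 and lowest in KO 1. Of the 12 markers 7 were lowest in KO 1, but 5 were highest in WT 2 and only 3 in WT 1. Both KO sums also lay below both WT sums. The genotypes did not overlap with KO lower in 7 of the 12 (10.5% of all genes tested). With KO higher this held for 1 (19.2% of all genes). The median difference of the 12 was -0.17. Periotic mesenchyme markers were highest in KO 1 and lowest in WT 2, with 1060 TPM (WT 1), 899 (WT 2), 1471 (KO 1) and 987 (KO 2); 9 of 12 were highest in KO 1 and 9 lowest in WT 2. Macrophage markers summed to 47.4, 56.6, 73.3 and 44.9 TPM and endothelial markers to 251, 279, 312 and 254 TPM in the same order of libraries. Neuronal markers summed to 488 TPM (WT 1), 749 (WT 2), 400 (KO 1) and 1069 (KO 2), lowest in KO 1 but highest in KO 2. Erythroid markers summed to 10869, 26019, 13510 and 15368 TPM in that order, lowest in WT 1 and highest in WT 2. Proliferation genes were even, between 2129 and 2261 TPM. The part of these cell types in the glycolysis differences was not tested.

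Among the carriers, Slc2a1 and Slc16a3 were below WT in both KO libraries. Slc2a1 (ENSMUSG00000028645.11, chromosome 4, 119108711 to 119137983, GRCm38) encodes GLUT1, the glucose carrier of most embryonic cells. It was at 123 TPM (WT 1), 97.9 (WT 2), 96.0 (KO 1) and 90.01 (KO 2). The 2 genotypes did not overlap, but WT 2 and KO 1 were close. Its difference was -0.24 (SE 0.13; limma adjusted p = 1.00), and -0.07 without WT 1 or -0.40 without WT 2. Slc16a3 (ENSMUSG00000025161.16, chromosome 11, 120948480 to 120960868) encodes MCT4, a carrier that exports lactate. Its level was 82.3 TPM (WT 1), 55.5 (WT 2), 38.8 (KO 1) and 54.8 (KO 2), so WT 2 and KO 2 were nearly equal. The difference of -0.54 (SE 0.25; limma adjusted p = 1.00) became -0.26 without WT 1 and -0.30 without KO 1, but -0.82 without WT 2 and -0.79 without KO 2. Slc16a1, which encodes the related carrier MCT1, ranged only from 28.4 TPM in KO 2 to 33.2 in WT 1. Slc2a3, the gene of the high-affinity carrier GLUT3, ranged from 9.68 TPM in KO 2 to 14.4 in KO 1 and had no direction between the genotypes (-0.01, SE 0.23).

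At the entry of glycolysis, hexokinase phosphorylates glucose, and its 2 listed genes stood at similar levels. Hk1 was at 25.99 TPM (WT 1), 25.3 (WT 2), 26.96 (KO 1) and 25.9 (KO 2). Hk2, the isozyme known as inducible, was at 30.7, 23.0, 20.6 and 24.5 TPM. Hk1 was even, with a range of 0.09 on the log2 scale, and Hk2 ranged over 0.56. The median range over the 4 libraries was 0.28 for all genes tested and 0.40 for the 17 enzymes. Gpi1, which encodes the isomerase of the next step, ranged from 274 TPM in KO 1 to 310 in WT 1.

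Phosphofructokinase catalyses the committed step. Its liver type gene Pfkl dominated, at 173 TPM (WT 1), 137 (WT 2), 128.4 (KO 1) and 161 (KO 2). The muscle type gene Pfkm was at 37.7, 34.3, 41.8 and 39.8 TPM, and both KO libraries lay above both WT libraries (difference 0.18, SE 0.09; limma adjusted p = 1.00). The platelet type gene Pfkp (ENSMUSG00000021196.14, chromosome 13, 6579768 to 6648777) was the third and lowest. It was at 7.92 TPM (WT 1), 6.53 (WT 2), 9.21 (KO 1) and 12.3 (KO 2). KO was higher without overlap, by 0.51 (SE 0.19; limma adjusted p = 1.00), and KO 2 was well above KO 1. Without KO 2 the difference was 0.32 and without KO 1 it was 0.69. Neuronal markers were also highest in KO 2, at 1069 TPM, but lowest in KO 1, at 400 TPM, where Pfkp was above both WT libraries. Their part in the Pfkp difference was not tested.

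In the middle of the pathway, aldolase cleaves the doubly phosphorylated sugar and triosephosphate isomerase interconverts its products. Aldoa was at 698 TPM (WT 1), 570 (WT 2), 497 (KO 1) and 609 (KO 2). A neighbouring gene carries the same symbol (ENSMUSG00000114515.2) and stood between 4.92 and 8.42 TPM; it was not counted as a member. Aldoc, the aldolase of brain, was at 8.77, 5.78, 5.16 and 6.10 TPM. Tpi1 ranged from 402 TPM in WT 2 to 532 in WT 1. All 3 were highest in WT 1, and in all 3 KO 2 lay above WT 2.

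The second phase of glycolysis, from Gapdh to Pkm, yields ATP and held the highest levels of the list. Gapdh (ENSMUSG00000057666.18, chromosome 6, 125161715 to 125166467), the dehydrogenase often used as a reference gene, was at 2536 TPM (WT 1), 2696 (WT 2), 2117 (KO 1) and 2798 (KO 2). Pgk1, the first kinase to make ATP in the pathway, was at 777, 568, 553 and 613 TPM. Pkm (ENSMUSG00000032294.17, chromosome 9, 59656368 to 59679375), which encodes the pyruvate kinase of most tissues, was at 1568, 1335, 1232 and 1434 TPM. Pgk1 and Pkm had WT 1 at the top and KO 1 at the bottom, while for Gapdh KO 2 was at the top. Their differences were -0.10 (SE 0.16), -0.19 (SE 0.17) and -0.12 (SE 0.13). Pgam1, the mutase, ranged from 511 TPM in KO 1 to 662 in WT 1, and the enolase gene Eno1 from 910 in KO 1 to 1133 in WT 1. Eno2, the enolase of neurons, was low, from 2.74 TPM in WT 1 to 4.07 in WT 2.

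Several of these levels depend on near-identical copies elsewhere in the genome, among which reads can be split. For 9 members, other genes of the table have a transcript that shares at least 50% of its 31-base words with a member's transcript, 52 genes in all. Only 14 of these reached a mean of 1 TPM, and they belonged to 4 members, Gapdh, Eno1, Pgam1 and Gpi1. Copies held 25.4% of the summed TPM of Gapdh and its copies, 29.9% for Eno1, 7.66% for Pgam1 and 0.338% for Gpi1. The copies were uneven between the numbered libraries. The processed pseudogene Gm13394 was at 630 TPM in WT 1 and 1027 in KO 1, but at 2.94 in WT 2 and 3.52 in KO 2. Gm10359, whose 31-base words all occur in Gapdh, was listed at 0 in WT 1 and KO 1 and stood at 389 TPM in WT 2 and 189 in KO 2. For Eno1, the pseudogene Gm4735 was at 1.56 TPM (WT 1), 205 (WT 2), 90.2 (KO 1) and 234 (KO 2).

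Summing each gene with its copies, an analysis added after the data were seen, changed the order of the libraries for Gapdh. Its sum was 3659 TPM (WT 1), 3165 (WT 2), 3703 (KO 1) and 3073 (KO 2). KO 1, the lowest library for Gapdh alone, became the highest, and the difference shrank to -0.01 (SE 0.14). The Eno1 sum, with the coding retrocopy Eno1b included, was 1572, 1413, 1302 and 1479 TPM, which kept WT 1 highest and KO 1 lowest. The Pgam1 sum was 697, 587, 521 and 595 TPM, also with WT 1 highest and KO 1 lowest. The median of the enzymes was -0.10 with copies summed.

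**Figure D4:**
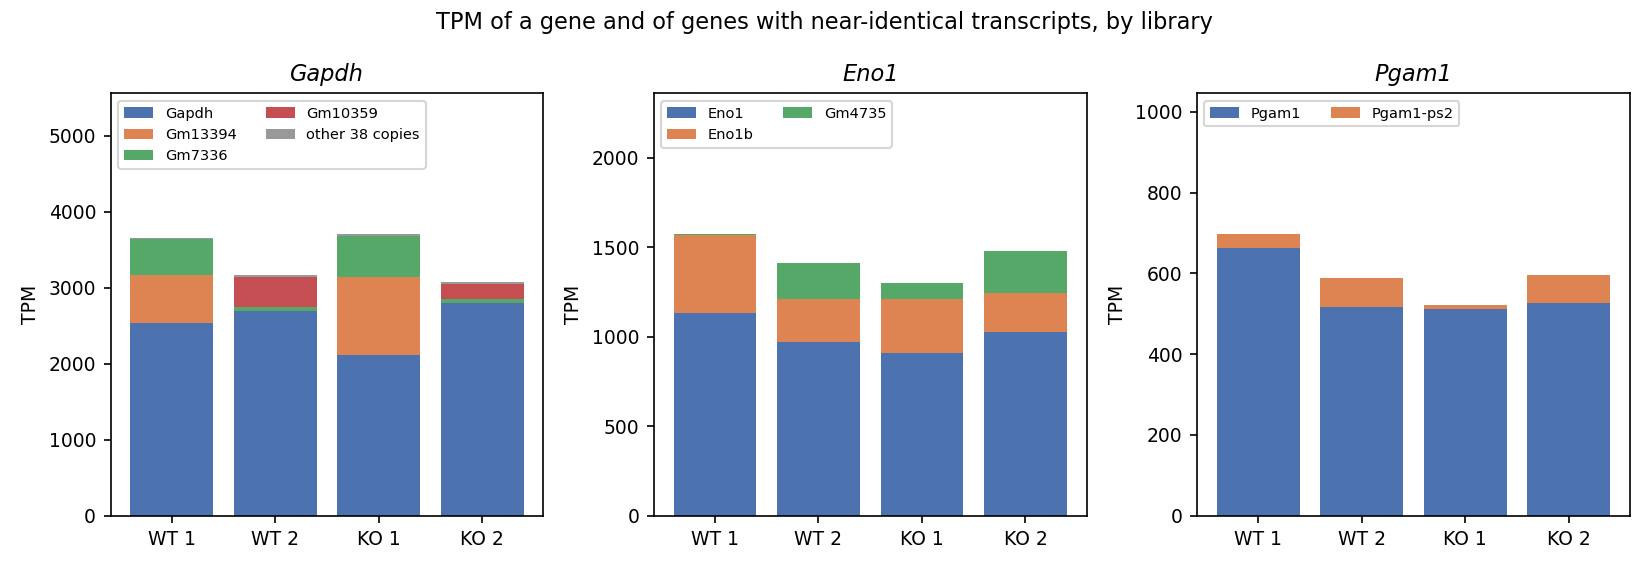
TPM of Gapdh, Eno1 and Pgam1 (blue) with the TPM of genes that have near-identical transcripts stacked on top, 1 bar per library, axes starting at 0. The Gapdh copies make up a larger stack in WT 1 and KO 1 than in WT 2 and KO 2, and the total for KO 1 reaches that of WT 1.

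At the end of the pathway, the 2 lactate dehydrogenase genes behaved differently. Ldha (ENSMUSG00000063229.15, chromosome 7, 46841475 to 46855627) encodes the subunit that favours lactate formation. It was at 1250 TPM (WT 1), 925 (WT 2), 818 (KO 1) and 1051 (KO 2). Ldhb, the subunit that favours the reverse reaction, was at 515 TPM (WT 1), 519 (WT 2), 491 (KO 1) and 509 (KO 2). Ldha ranged over 0.61 on the log2 scale and Ldhb over 0.08. The genotypes did not overlap for Ldhb, but its difference was only -0.05 (SE 0.06). For Ldha the difference was -0.21 (SE 0.20), made of -0.61 from WT 1 to KO 1 and 0.18 from WT 2 to KO 2.

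The flux regulators set how much pyruvate is made and where it goes. Pdk1, a kinase that inactivates pyruvate dehydrogenase and so limits the conversion of pyruvate to acetyl-CoA, was at 48.2 TPM (WT 1), 36.1 (WT 2), 29.5 (KO 1) and 38.5 (KO 2). Its difference was -0.30 (SE 0.20; limma adjusted p = 1.00), with -0.69 from WT 1 to KO 1 and 0.09 from WT 2 to KO 2. Pdk3, a kinase of the same family, was at 47.9, 40.9, 49.8 and 39.1 TPM, where both libraries numbered 1 exceeded both numbered 2. Pfkfb3 and Pfkfb4 make fructose-2,6-bisphosphate, the activator of phosphofructokinase. Pfkfb3 ranged from 12.2 TPM in KO 1 to 16.8 in WT 1. Pfkfb4 was at 5.42 TPM (WT 1), 7.81 (WT 2), 5.91 (KO 1) and 9.12 (KO 2), lower in the libraries numbered 1 in both genotypes (difference 0.15, SE 0.27).

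Isozyme make-up was compared within 12 families, as shares of the family's summed TPM. Pfkl made up 79.2% (WT 1), 77.04% (WT 2), 71.6% (KO 1) and 75.5% (KO 2) of phosphofructokinase TPM. The Pfkp share was 3.62% (WT 1), 3.67% (WT 2), 5.13% (KO 1) and 5.76% (KO 2). These 2 shares did not overlap between genotypes. Ldha made up 70.8% (WT 1), 64.1% (WT 2), 62.5% (KO 1) and 67.4% (KO 2) of its family, and Slc16a3 71.3%, 64.7%, 54.8% and 65.9% of the 2 monocarboxylate carriers. Both shares were highest in WT 1 and lowest in KO 1. Aldoa made up at least 98.8% of aldolase and Eno1 at least 99.6% of enolase in every library. Over 12 families, the smallest two-sided p of an exact permutation test was 0.333, which is the smallest that 2 libraries against 2 can give, and 0.889 after Benjamini-Hochberg adjustment over the families. It was reached by 3 families, phosphofructokinase, the collagen prolyl hydroxylases and the hypoxia-inducible factors.

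**Figure D5:**
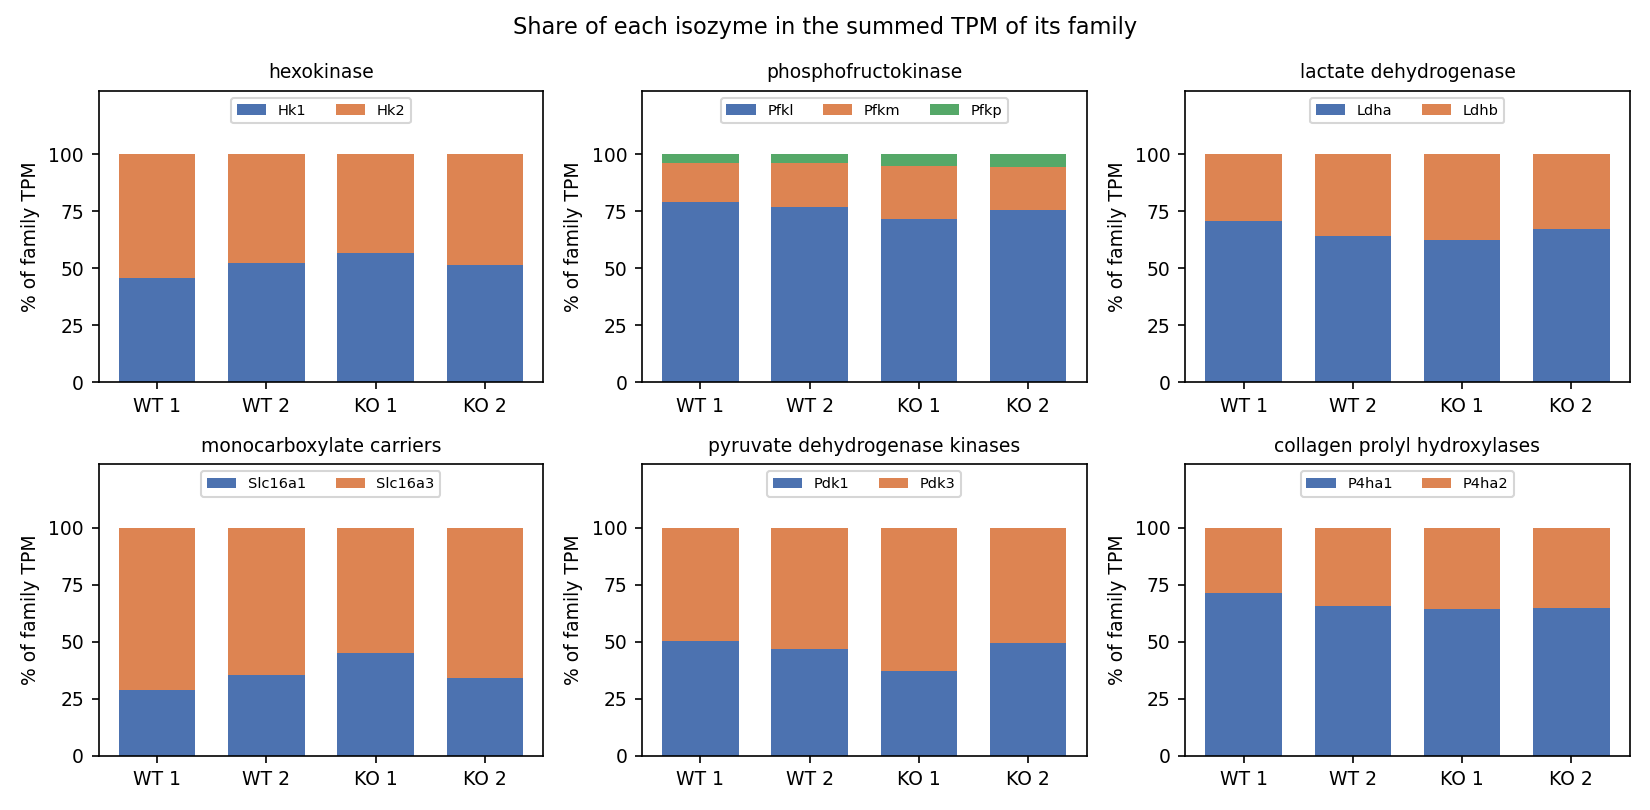
Share of each isozyme in the summed TPM of its family, in percent, 1 stacked bar per library, for 6 families. Hk2, Ldha, Slc16a3 and P4ha1 take their largest share in WT 1, and the Pfkp band is wider in KO 1 and KO 2 than in either WT library.

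Hypoxia targets outside glycolysis showed opposite patterns. Bnip3 (ENSMUSG00000078566.8, chromosome 7, 138890836 to 138909519), which encodes a receptor for the removal of mitochondria, was at 113 TPM (WT 1), 71.6 (WT 2), 58.1 (KO 1) and 64.7 (KO 2). WT 1 stood above the other 3 libraries, and both KO libraries were below WT 2. WT averaged 92.5 ± 29.5 TPM and KO 61.4 ± 4.66 TPM (SD, n = 2). The difference was -0.55 (SE 0.23; limma adjusted p = 1.00). It was -0.22 without WT 1 and -0.88 without WT 2. P4ha1, which encodes a catalytic subunit of the collagen prolyl hydroxylase, was at 54.1 TPM (WT 1), 36.1 (WT 2), 38.8 (KO 1) and 38.3 (KO 2), so WT 1 alone was high. Ankrd37, a small ankyrin repeat gene, was likewise highest in WT 1, at 17.6 TPM, and between 11.9 and 14.1 in the others. P4ha2, the second subunit gene, ranged only from 18.8 TPM in WT 2 to 21.5 in WT 1.

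Car9, Ndrg1 and Adm showed the reverse order, lowest in WT 1 and highest in KO 1. Car9 (ENSMUSG00000028463.14, chromosome 4, 43506966 to 43513729) encodes a carbonic anhydrase at the cell surface that acidifies the outside of hypoxic cells. It was at 4.84 TPM (WT 1), 6.56 (WT 2), 8.63 (KO 1) and 8.33 (KO 2). The 2 KO libraries were close together and above both WT libraries. WT averaged 5.70 ± 1.21 TPM and KO 8.48 ± 0.211 TPM (SD, n = 2). The difference was 0.51 (SE 0.18; limma adjusted p = 1.00). Without WT 1 it was 0.33 and without WT 2 it was 0.70. Ndrg1, a stress-responsive gene, was at 3.18 TPM (WT 1), 3.796 (WT 2), 6.32 (KO 1) and 4.08 (KO 2). Its difference of 0.44 (SE 0.24) was 0.18 without KO 1. Adm, which encodes the vessel-active peptide adrenomedullin, was barely above the filter at 0.677, 0.818, 1.77 and 1.02 TPM. KO 1 was high for Ndrg1 and Adm, and WT 2 and KO 2 were close. Mesenchymal, endothelial and macrophage markers were highest in KO 1 as well, and their part in these differences was not tested.

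The sequences upstream of genes from both ends of this order are printed to show how the core of the hypoxia response element lies in each. The core is ACGTG or GCGTG, searched on both strands in the 250 bases before each RefSeq gene start (GRCm38.p6). RefSeq starts can differ from the gene coordinates given elsewhere here, which are from GENCODE M21. The Slc16a3 window lies wholly inside that gene's GENCODE coordinates, and the windows of Bnip3, Car9 and Pfkfb4 overlap theirs in part. The 3 members with the largest and the 3 with the smallest excess of WT 1 over the mean of the other libraries are shown, among members with a single annotated start. The excess was 0.80 for Bnip3, 0.73 for Slc16a3 and 0.51 for P4ha1, and -0.59 for Car9, -0.41 for Pfkfb4 and -0.37 for Adm. Capitals mark each match on either strand, and the strand printed is that of the gene. The windows are chr7:138909507-138909756 on the minus strand for Bnip3, and on the plus strand chr11:120948817-120949066 for Slc16a3, chr10:59323046-59323295 for P4ha1, chr4:43506776-43507025 for Car9, chr9:108991652-108991901 for Pfkfb4 and chr7:110627407-110627656 for Adm.
Bnip3: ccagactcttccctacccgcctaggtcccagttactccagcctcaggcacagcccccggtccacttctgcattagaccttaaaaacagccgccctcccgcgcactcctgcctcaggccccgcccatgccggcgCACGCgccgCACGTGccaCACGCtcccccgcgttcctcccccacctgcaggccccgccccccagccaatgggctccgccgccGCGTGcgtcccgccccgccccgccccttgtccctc
Slc16a3: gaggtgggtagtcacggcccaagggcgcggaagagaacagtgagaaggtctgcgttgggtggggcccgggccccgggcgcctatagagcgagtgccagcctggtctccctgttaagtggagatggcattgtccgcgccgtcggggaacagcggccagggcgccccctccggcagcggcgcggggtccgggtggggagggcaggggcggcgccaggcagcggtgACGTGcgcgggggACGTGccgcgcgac
P4ha1: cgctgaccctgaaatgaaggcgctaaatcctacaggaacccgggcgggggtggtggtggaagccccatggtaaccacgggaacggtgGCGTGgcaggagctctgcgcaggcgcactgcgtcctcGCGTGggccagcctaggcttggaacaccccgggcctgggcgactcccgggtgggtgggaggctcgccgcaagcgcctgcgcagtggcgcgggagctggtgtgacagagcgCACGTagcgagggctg
Car9: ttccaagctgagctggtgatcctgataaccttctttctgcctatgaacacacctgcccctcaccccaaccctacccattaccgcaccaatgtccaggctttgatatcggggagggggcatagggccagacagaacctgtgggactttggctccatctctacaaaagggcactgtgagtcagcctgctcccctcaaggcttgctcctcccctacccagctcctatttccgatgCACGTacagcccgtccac
Pfkfb4: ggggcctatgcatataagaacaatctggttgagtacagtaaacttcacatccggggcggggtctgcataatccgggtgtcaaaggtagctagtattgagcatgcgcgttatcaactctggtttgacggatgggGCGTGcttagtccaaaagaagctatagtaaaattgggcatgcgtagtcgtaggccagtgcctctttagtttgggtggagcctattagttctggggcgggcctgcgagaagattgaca
Adm: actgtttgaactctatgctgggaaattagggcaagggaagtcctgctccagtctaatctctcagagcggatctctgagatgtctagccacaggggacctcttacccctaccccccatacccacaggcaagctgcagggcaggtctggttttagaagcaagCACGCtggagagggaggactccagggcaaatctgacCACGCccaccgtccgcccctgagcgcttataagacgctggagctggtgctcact

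All 6 windows held a core. In Bnip3 the stretch 108 bases before the start reads CACGTG, a palindrome that counts as ACGTG on both strands, with GCGTG cores around it. Slc16a3 had ACGTG at 27 and at 14 bases before the start, and P4ha1 had ACGTG, read on the other strand, at 16 bases beside GCGTG at 163 and 126. In Car9 the single core, ACGTG read on the other strand, began 18 bases before the start, and Pfkfb4 and Adm held GCGTG only. ACGTG thus occurred in genes of either order. GC content was 72.4% for Bnip3, 73.6% for Slc16a3 and 69.6% for P4ha1, and 56.4% for Car9, 50% for Pfkfb4 and 56.8% for Adm.

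Across the list, 34 members had an annotated start in the table; the others were Slc2a3, Ndrg1 and Epas1. ACGTG was found upstream of 21 of the 34 (61.8%), against 24.8% of tested genes and 18.5% of all genes in the table. GCGTG was found upstream of 23 of the 34 (67.6%), against 49.7% of tested genes and 30.9% of all genes. By role, ACGTG was upstream of 7 of 17 enzymes and 8 of 9 hypoxia targets. Genes with several starts were counted once, with a match at any start. By window, 24 of 48 member windows (50%) held ACGTG, against 21% of windows of tested genes and 16.6% of all 32851 windows. For 43 of the 48, bases just after the start occurred in a transcript of the same gene. The list holds known HIF targets, so a high share of the core is no finding about these libraries. The palindrome CACGTG, which overlaps ACGTG and is also bound by other factors, was upstream of 6 of the 34 members and of 9.81% of tested genes. The median excess of WT 1 over the other libraries was 0.28 for the 21 members with ACGTG, from -0.59 to 0.80, and 0.03 for the 13 without it, from -0.41 to 0.55. WT 1 was the highest library in 15 of the 21 and 6 of the 13, and in 18.1% of all genes tested. The same split was not made for the other genes tested, so it cannot tie the core to the level in WT 1. These are descriptions of letters in a window and not of binding.

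For the oxygen sensors, Vegfa and the factors themselves, the genotypes overlapped in every gene. Egln1, which encodes PHD2, the main hydroxylase that marks HIF alpha subunits for destruction, was at 43.8 TPM (WT 1), 35.7 (WT 2), 39.4 (KO 1) and 40.8 (KO 2) (difference 0.02, SE 0.12). Egln3, the gene of the related PHD3 and itself a HIF target, ranged from 4.40 TPM in KO 1 to 6.47 in KO 2. Vegfa (ENSMUSG00000023951.17, chromosome 17, 46016993 to 46032369), the ligand that draws vessels into the tissue, was at 52.3, 51.5, 47.8 and 64.9 TPM, high in KO 2 alone (difference 0.10, SE 0.16). Hif1a was at 85.8 TPM (WT 1), 73.2 (WT 2), 89.2 (KO 1) and 77.6 (KO 2). Epas1, which encodes HIF-2 alpha and is known from endothelium, was at 8.04, 6.90, 9.58 and 7.38 TPM. Both factors were highest in KO 1, lowest in WT 2 and higher in each library numbered 1 than in the one numbered 2. Their differences were 0.07 (SE 0.12) and 0.16 (SE 0.18). Endothelial markers were highest in KO 1 too, and their part was not tested. Since HIF alpha subunits are known to be controlled at the level of protein stability, these RNA levels do not measure HIF activity.

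Other genes of the same pathways were read from 2 further lists. Of 28 tested genes of glycolysis and pyruvate metabolism outside the 37, 0 passed the test with limma. A higher mean in KO was seen in 14 and a lower mean in 14, where 38.4% of all genes tested were lower. The median difference of the 28 was -0.00, and 2 had an unadjusted limma p under 0.05 (3.5% of all genes tested). The 2 lower genes with the smallest p were Myc and Eno3. Myc (ENSMUSG00000022346.15, chromosome 15, 61985391 to 61990374), a transcription factor that drives glycolytic genes among many others, was at 17.9 TPM (WT 1), 18.5 (WT 2), 9.99 (KO 1) and 9.32 (KO 2). Each genotype was tight and they lay far apart, with a difference of -0.85 (SE 0.11; limma adjusted p = 1.00). Eno3, the muscle enolase, was at 106, 118, 83.2 and 97.2 TPM (difference -0.31, SE 0.11). On the higher side, Mpc1, a subunit of the mitochondrial pyruvate carrier, was at 39.8, 34.3, 42.5 and 46.997 TPM (0.27, SE 0.11), and Adpgk, an ADP-dependent glucokinase, at 25.6, 26.5, 30.2 and 28.4 TPM (0.17, SE 0.09).

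Of 45 further genes of the hypoxia pathway, 0 passed with limma, and 4 had an unadjusted limma p under 0.05 (3.5% of all genes tested). In KO 20 were higher and 25 lower, where 38.4% of all genes were lower. The median difference of the 45 was -0.01. WT 1 was the highest library in 20 of the 45 (18.1% of all genes) and KO 1 the lowest in 16 (22.3% of all genes). Ak4, a mitochondrial adenylate kinase, was at 23.6 TPM (WT 1), 22.2 (WT 2), 15.0 (KO 1) and 17.2 (KO 2) (difference -0.49, SE 0.11; limma adjusted p = 1.00). Ddit4, an inhibitor of the growth regulator mTORC1, was at 107, 105, 86.97 and 87.9 TPM (-0.27, SE 0.06; limma adjusted p = 1.00). Both genes shared the order of libraries seen for Bnip3, with both KO libraries below both WT libraries, but here WT 1 and WT 2 were close together. Higher in KO were Lox, a collagen cross-linking enzyme, at 1.00, 0.788, 2.86 and 1.69 TPM (0.77, SE 0.28), and Arnt, the partner of the HIF alpha subunits, at 30.9, 33.0, 37.1 and 34.9 TPM (0.17, SE 0.09). Lox was highest in KO 1, where mesenchymal markers were highest too, and their part was not tested.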

How the data were processed

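RNA of otic vesicles was sequenced in 2 WT and 2 KO libraries. The authors deposited gene-level TPM; per the submitters' processing notes, Salmon 0.9.1 and GRCm38 were used. The authors' annotation, and how they summed transcripts to genes, were not given in the sources used here. Each library sums to 1000000 TPM, and depth is unknown. Gene IDs were matched by number to GENCODE M21 (GRCm38), which named 34582 of 34866. Of these genes 14496 had a mean of at least 1 TPM and were tested on the log2(TPM + 1) scale. limma 3.58.1 (R 4.3.3) compared the genotypes with no other term, with a variance trend, and two-sided p-values were adjusted over all genes tested by the Benjamini-Hochberg method. The fit was tested on simulated data with independent noise and planted changes larger than any member's difference. That test does not show whether differences of the members' size would be found. Isozyme shares were compared by exact permutation. Promoter windows and starts are from RefSeq (GRCm38.p6). Shared 31-base words were counted over GENCODE M21 transcripts.

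Members and lists were chosen with earlier results of these data known. The rule for full values took, per role, the 2 members with the highest mean and the 2 with the smallest p, those without overlap at an unadjusted p under 0.05, and of the other pathway lists the 2 with the smallest p in each direction; further members were described by role. Alternatives were other pseudocounts, filters, scalings, gene sets and variance models, a replicate block, leaving out each library and, added after the data were seen, summing near-identical copies.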

Additional observations from a re-analysis of the deposited data

How the results depend on the processing

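No member passed the threshold under any alternative; the smallest adjusted p of a member was 0.598 (Car9, replicate block, limma). Of all genes tested, 0 passed in the planned fit and under each alternative but leaving out a KO library, with 2 genes without KO 1 and 10 without KO 2 (range 0 to 10). The 1 remaining library is then assumed to vary like the other group. Same-numbered libraries deviated together, with a correlation of 0.42 across genes, but with only 2 pairs the numbers were not taken as pairing; with the replicate block 0 genes passed in limma, and 1178 against 507 had an unadjusted p under 0.05. Leaving out 1 library moved the hypoxia target median between -0.061 and 0.16 (0.07 with all) and its excess over the enzyme median between 0.076 and 0.18. The enzyme median was negative in each of these fits. Scaling turned the sign of Egln1 (-0.017 by median-of-ratios, -0.029 by quantile normalization) and Hk1 (-0.012 by quantile normalization). Leaving out 1 library turned the sign of 21 members, whose ranges on the log2 scale were Slc2a3 -0.27 to 0.26, Slc16a1 -0.16 to 0.013, Gpi1 -0.13 to 0.034, Pfkl -0.27 to 0.067, Tpi1 -0.30 to 0.11, Gapdh -0.30 to 0.10, Pgk1 -0.42 to 0.035, Pgam1 -0.35 to 0.010, Eno2 -0.33 to 0.10, Ldha -0.43 to 0.0039, Pfkfb3 -0.27 to 0.10, Pfkfb4 -0.12 to 0.43, Pdk3 -0.18 to 0.17, Ankrd37 -0.37 to 0.16, Vegfa -0.12 to 0.32, Egln1 -0.13 to 0.16, Egln3 -0.17 to 0.29, P4ha1 -0.48 to 0.093, P4ha2 -0.024 to 0.16, Hif1a -0.044 to 0.18 and Epas1 -0.012 to 0.32. The cause was not tested. Depth is not known, and 2 libraries a group limit all comparisons.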
